A study of Homo sapiens with 4 samples.

Results

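Hypoxia-inducible factor (HIF) target genes were examined in the pancreatic cancer cell line PANC-1 and in its H2A.Z knockdown clone PZT-2. The 10 genes were NDRG1, ANGPTL4, BNIP3, BNIP3L, PDK1, ADM, VEGFA, CA9, PFKFB3 and PFKFB4, out of 15220 genes with a value in the RNA-seq table. They were chosen by name, with the difference between PZT-2 and PANC-1 already known for some of them, so their differences are given as a description without a test. A value was present for 9 of the 10, and these 9 passed the filter on low counts. CA9 had no value in any library.

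PANC-1 is a human pancreatic ductal adenocarcinoma line and was used untransduced. PZT-2 was made from it with shRNAs against H2AFZ and H2AFV, which encode the isoforms of the histone variant H2A.Z. PZT-2 is 1 clone, so the knockdown cannot be told apart from other differences between this clone and its parent line. Each line gave 2 libraries, at the same passage range, from cells grown in DMEM with fetal bovine serum and without any hypoxic treatment named in the labels. In bulk RNA, fewer cells of a type and less RNA per cell cannot be told apart.

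HIFs are transcription factors that join an oxygen-regulated alpha subunit, such as HIF1A or EPAS1, to a stable partner, ARNT. When oxygen is plentiful, prolyl hydroxylases of the EGLN family mark the alpha subunit and the VHL ubiquitin ligase has it degraded. When oxygen is scarce, the alpha subunit accumulates and switches on genes for glycolysis, blood vessel growth, pH control and mitophagy, and pancreatic ductal tumors are known for poor perfusion and low oxygen. HIF protein, oxygen and metabolites were not measured in these libraries.

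The recovered totals lay between 12861331 and 15717459 counts per library. The targets of the knockdown were lower in PZT-2, as H2AFZ had 6386 and 6031 normalized counts in the PANC-1 libraries and 2211 and 2258 in the PZT-2 libraries, and H2AFV had 3342 and 3451 against 2589 and 2717. The call of H2AFV was lost without PZT-2 replicate 1, in a fit that called fewer genes over all genes too. All 6 ductal or epithelial markers looked up had a value, with KRT8, KRT18 and KRT19 between 12378 and 41912 normalized counts in each library, and 4 of the 6 were lower in PZT-2 and none higher by edgeR's quasi-likelihood test. Of the 4 mesenchymal markers, VIM (106040 and 104450 counts in PANC-1, 76354 and 74678 in PZT-2) and CDH2 (log2 -1.84) were lower. FN1 was at 15.4 counts or fewer in each library and ZEB1 had 9 and 135 counts in PANC-1 and 122 and 126 in PZT-2, and neither passed. COL1A1, the only 1 of the 4 fibroblast markers that was tested, was lower too (log2 -1.75). Of the 2 endothelial markers only PECAM1 was tested. It was at 12.4 counts or fewer in each library and did not pass. None of the 5 acinar and 4 endocrine markers was tested, and of the leukocyte markers CD68 was present while PTPRC and CD3E had no value. PANC-1 replicate 1 stood apart from PANC-1 replicate 2 for VEGFA and a group of stress genes, which are described with VEGFA.

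HIFs bind a short core, ACGTG or GCGTG, which reads CACGT or CACGC on the opposite strand. The RefSeq promoter table on GRCh38.p14 gave 9 windows for 7 of the 10 genes, each running from 250 bases before to 50 bases after a start site. No window was printed for NDRG1, BNIP3L or VEGFA. The stretches that hold the core before the start are shown for each gene because this core is what HIFs bind, 5′ to 3′ on the strand of the gene, with the core of either strand in capitals.
BNIP3, chr10:131982013-131982076, minus strand: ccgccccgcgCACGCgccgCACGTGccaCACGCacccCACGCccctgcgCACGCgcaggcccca
ANGPTL4, chr19:8363911-8363935, plus strand: aaagaagagtCACGTctcccacggt
PDK1, chr2:172556063-172556089, plus strand: tgctgcccgcCACGTccctCACGTacc
PFKFB4, chr3:48556955-48556979, minus strand: agttgggcatGCGTGgtcggaggcc
PFKFB3, chr10:6144743-6144767, plus strand: cggcccggccCACGCcccggcttcc
PFKFB3, chr10:6202814-6202839, plus strand: ccctcctcccCACGTGgaagggggct
CA9, chr9:35673900-35673924, plus strand: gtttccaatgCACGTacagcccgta
ADM, chr11:10304962-10304986, plus strand: gcaggagcgcGCGTGgctgaggaaa

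The core was found in 8 of the 9 windows, and all 7 genes had at least 1 window with it. The other PDK1 window, around an upstream start, had none. BNIP3 held 6 cores within the printed stretch, where the palindrome CACGTG counts once on each strand, and its window was 80.7% G or C. CACGTG occurred in the windows of BNIP3 and PFKFB3 only among the 9. The core is common, as 48.4% of all 35116 windows of the same length and 60.3% of the 16109 windows of tested genes held it on either strand. Among tested genes with a window, 15.7% of the 7806 with the core and 15.6% of the 3528 without it were called higher in PZT-2, and 15.1% and 12.8% were called lower. The presence of these letters is a description and does not show that a factor was bound.

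Levels can be compared between genes only per length, as deposited TPM. ADM, which encodes the vasodilator peptide adrenomedullin, was the most abundant of the 9 genes in PANC-1, at 147.2 ± 1.4 TPM (SD, n = 2). It was followed by BNIP3 at 88.3 ± 3.02 TPM, VEGFA at 53.0 ± 17, ANGPTL4 at 43.5 ± 2.64, BNIP3L at 17.4 ± 0.599, PFKFB3 at 10.6 ± 0.958, NDRG1 at 7.19 ± 0.259, PFKFB4 at 3.38 ± 0.772 and PDK1 at 3.11 ± 0.243. In this order the ranges of VEGFA and ANGPTL4 overlapped, as did those of PFKFB4 and PDK1, and the other neighbours did not overlap. In PZT-2 the order began with ANGPTL4 at 202.2 ± 2.81 TPM, ahead of ADM at 160.2 ± 1.84 and BNIP3 at 109.1 ± 8.75. NDRG1 at 57.6 ± 1.73 and VEGFA at 57.1 ± 1.81 overlapped in their libraries, BNIP3L at 16.8 ± 0.534 and PFKFB3 at 14.1 ± 0.864 came next, and PFKFB4 at 7.02 ± 0.450 and PDK1 at 6.83 ± 0.699 overlapped at the low end. NDRG1 therefore moved from the seventh to the fourth place and ANGPTL4 from the fourth to the first.

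NDRG1 and ANGPTL4 had the largest differences of the group. NDRG1, a stress-responsive gene of the N-myc downstream regulated family, had 178 and 168 normalized counts in PANC-1 and 1367 and 1430 in PZT-2. Both PZT-2 libraries stood far above both PANC-1 libraries, by 8.10-fold (log2 3.02 ± 0.08 SE). Its TPM lay above 42.1% of genes in PANC-1 and above 81.8% in PZT-2. ANGPTL4, a secreted inhibitor of lipoprotein lipase, had 587 and 632 normalized counts in PANC-1 and 2843 and 2900 in PZT-2, which is 4.70-fold higher (log2 2.23 ± 0.07 SE). The libraries of each line were close to each other for both genes, and the lines did not overlap.

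**Figure D1:**
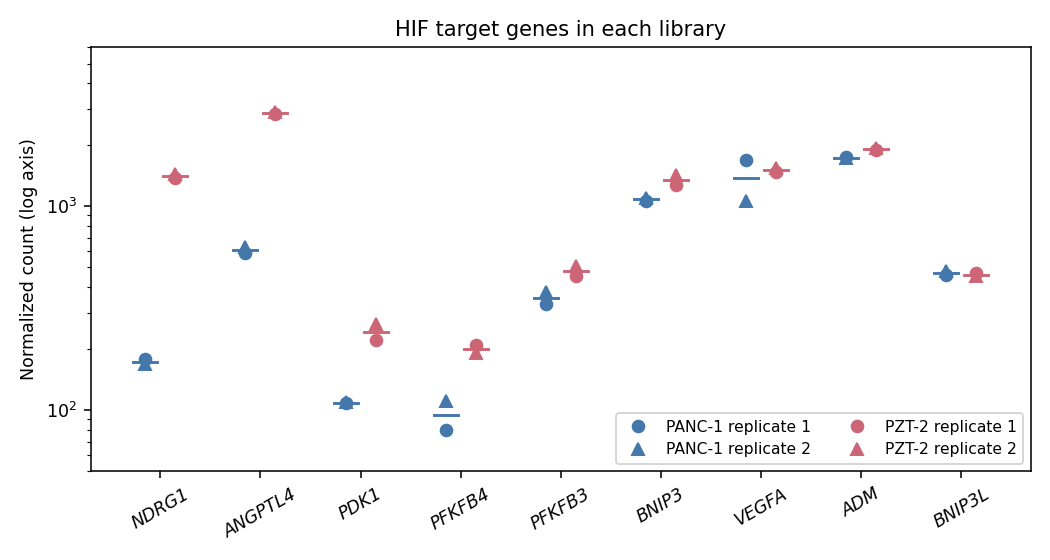
Normalized counts (log axis) of the 9 genes with a value, in order of their difference between the lines. Each point is 1 library, circles replicate 1 and triangles replicate 2, and each line is the mean of 2 libraries. NDRG1 and ANGPTL4 are the most separated, BNIP3L and VEGFA overlap, and the VEGFA point of PANC-1 replicate 1 is the highest of the 4.

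The genes that steer glucose carbon came next. PDK1, the kinase that turns off pyruvate dehydrogenase, had 108 and 109 normalized counts in PANC-1 and 220 and 263 in PZT-2 (2.22-fold, log2 1.15 ± 0.14 SE). PFKFB4 and PFKFB3 make and remove fructose 2,6-bisphosphate, an activator of glycolysis. PFKFB4 had 79.9 and 110 counts in PANC-1 and 207 and 191 in PZT-2 (2.08-fold, log2 1.05 ± 0.18 SE). PFKFB3 had 332 and 378 counts in PANC-1 and 456 and 506 in PZT-2 (1.35-fold, log2 0.43 ± 0.11 SE). Both libraries of PZT-2 were above both libraries of PANC-1 for each of the 3 genes. PFKFB4 is on chromosome 3, whose 836 tested genes had a median log2 difference of 0.43, while the chromosomes of the other 8 genes had medians between -0.05 and 0.12. The part of this chromosome-wide difference in the PFKFB4 value was not tested, and 90.4% of the chromosome 3 genes had a lower difference than PFKFB4.

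BNIP3 and BNIP3L, paralogous receptors that mark mitochondria for autophagy, had different values. BNIP3 had 1055 and 1099 normalized counts in PANC-1 and 1265 and 1419 in PZT-2 (1.25-fold, log2 0.32 ± 0.08 SE), with no overlap. BNIP3L had 461 and 482 counts in PANC-1 and 471 and 452 in PZT-2 (log2 -0.03 ± 0.08 SE), and its libraries overlapped. The difference between the 2 genes was not tested.

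ADM had 1748 and 1712 normalized counts in PANC-1 and 1881 and 1916 in PZT-2 (1.10-fold, log2 0.13 ± 0.06 SE). Its libraries did not overlap, but the difference was small beside those of NDRG1 and ANGPTL4. VEGFA, the main growth factor for blood vessels, had 1685 and 1055 counts in PANC-1 and 1472 and 1532 in PZT-2 (log2 0.14 ± 0.20 SE). The PZT-2 libraries lay between the 2 PANC-1 libraries. CA9, which encodes a cell surface carbonic anhydrase that is widely used as a marker of hypoxia, is represented here only by its promoter stretch.

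Both PZT-2 libraries were above both PANC-1 libraries for 7 of the 9 genes and below them for none, where 33.3% and 32.9% of all 15100 genes tested did so in these directions. In the edgeR fit over all genes, adjusted by Benjamini and Hochberg's method, 6 of the 9 were past the threshold as higher and none as lower, against 14.7% and 13.7% of all genes. The median log2 difference was 0.43 for the 9 genes and 0.00117 for all genes tested. The choice of the genes used this contrast, so nothing is read from these counts. BNIP3 and PFKFB3 were not past the threshold in every fit that left out a PZT-2 library, where fewer genes were called over all genes too. With all 4 libraries, PFKFB3 was not past it with DESeq2 (adjusted p = 0.0563 by DESeq2). Nor was it with limma on log2(TPM + 1) or log2(TPM + 0.1) (adjusted p = 0.0527 and 0.0517 by limma). With the most abundant transcript of each gene, only NDRG1, ANGPTL4 and PDK1 were past it, and PFKFB4 was not. In 15 alternative settings the log2 difference ran from 0.231 to 0.398 for BNIP3 and from 0.342 to 0.528 for PFKFB3.

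The value of VEGFA rested on which PANC-1 library was used. It was 0.51 (log2) without PANC-1 replicate 1 and -0.17 without PANC-1 replicate 2. The gap between the PANC-1 replicates, log2 0.68, was larger than that of 98.9% of 10052 genes with a mean of at least 100 normalized counts, while the PZT-2 replicates differed by -0.06. DDIT4, a HIF target that restrains mTOR and also responds to other stresses, had a wider gap still, with 2912 and 894 counts in PANC-1 and 2607 and 2361 in PZT-2. Its log2 difference was 1.47 without PANC-1 replicate 1 and -0.24 without PANC-1 replicate 2. Each of these fits holds 1 PANC-1 library, so no spread between PANC-1 libraries enters it.

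A list of 8 targets of ATF4, the transcription factor of the integrated stress response, was written after these values were seen. All 8 were higher in PANC-1 replicate 1 than in replicate 2, with a median log2 gap of 1.26. The list was written with these gaps known, so nothing is read from their shared direction. TRIB3, for example, had 4007 and 1190 counts in PANC-1 and 1625 and 1701 in PZT-2. VEGFA is a known ATF4 target too, and the part of this gap in the VEGFA result was not tested. In the other 8 genes with a value the PANC-1 log2 gaps lay between -0.46 for PFKFB4 and 0.08 for NDRG1. The PFKFB4 gap, in the opposite direction to that of VEGFA, was larger than that of 96.7% of genes, and its log2 difference between the lines ran from 0.85 without PANC-1 replicate 1 to 1.31 without PANC-1 replicate 2. The PZT-2 replicates differed most for PDK1, at log2 -0.25, a larger gap than that of 90.9% of genes. None of the 8 ATF4 targets was called between the lines by edgeR with all 4 libraries. The log2 difference of TRIB3 was 0.48 without PANC-1 replicate 1 and -1.28 without PANC-1 replicate 2.

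**Figure D2:**
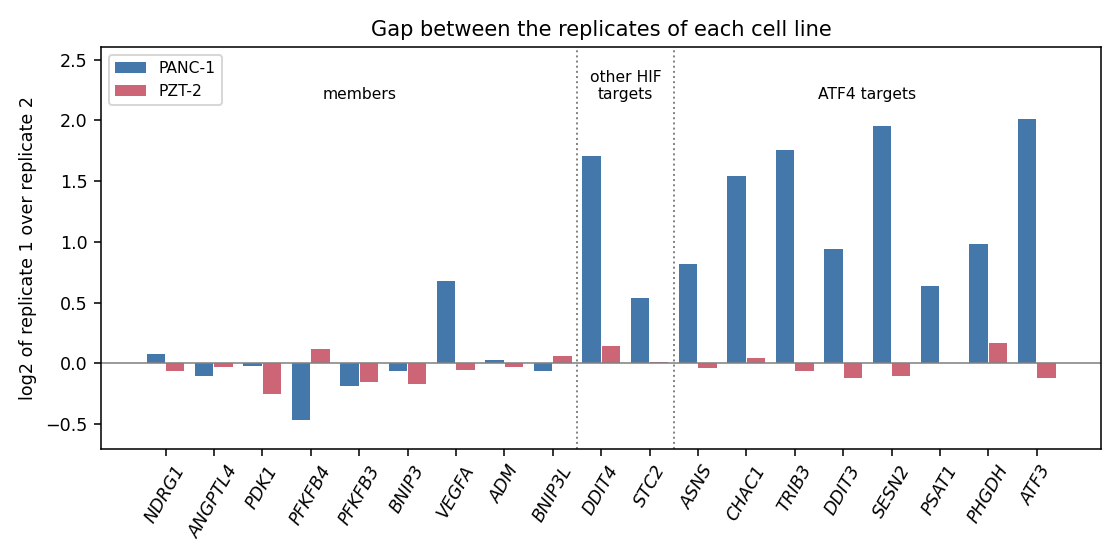
Log2 ratio of replicate 1 over replicate 2 within PANC-1 (blue) and within PZT-2 (red) for the 9 genes, 2 other HIF targets and 8 ATF4 targets. Each bar is 1 ratio between 2 libraries. VEGFA at 0.68, DDIT4 at 1.70 and the ATF4 targets are higher in PANC-1 replicate 1, and the longest PZT-2 bar is that of PDK1 at -0.25.

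Of the 9 genes, 4 had 1 transcript in the table (ADM, BNIP3, BNIP3L and NDRG1) and 5 had several. ANGPTL4 counts came mainly from NM_139314, with 89.2% and 81.9% in PANC-1 and 92.1% and 89.2% in PZT-2. PDK1 counts came mainly from NM_002610, with 73.2% and 66.8% in PANC-1 and 67.5% and 62.9% in PZT-2. PFKFB4 counts came mainly from NM_004567, at 84.5% or more in each library. The leading transcript of these 3 genes was the same in all 4 libraries.

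PFKFB3 counts came mainly from NM_001145443, with 77.6% and 68.1% in PANC-1 and 80.1% and 63.3% in PZT-2. The replicates of each line differed in this share by more than the lines did. VEGFA had 12 transcripts that fell into 6 sets of equal values and of equal length, which the estimates did not tell apart. The largest set, NM_001025370 with NM_001171628, held 36% and 34.3% of the VEGFA counts in PANC-1 and 33.1% and 31% in PZT-2. No test of transcript shares was made.

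Other HIF targets were counted from lists written from general knowledge, with earlier results of these data known. Of 21 genes of glucose transport and glycolysis, all were tested. In PZT-2, 9 were higher (42.9%), 2 were lower (9.52%) and 10 did not pass, beside 14.7% higher and 13.7% lower of all genes. The median log2 difference was 0.18. ENO2, an enolase, had 344 and 359 normalized counts in PANC-1 and 743 and 796 in PZT-2 (log2 1.13, adjusted p = 0.000447 by edgeR). SLC2A1, the glucose transporter GLUT1, rose from 737 and 758 to 1206 and 1246 (log2 0.71, adjusted p = 0.000850 by edgeR). GYS1, glycogen synthase, rose by 0.62 and HK1, a hexokinase, by 0.54 on the log2 scale.

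ENO1 and GAPDH were the 2 glycolysis genes that were lower. ENO1, the main enolase, fell from 56110 and 54021 to 41536 and 41373 normalized counts (log2 -0.41, adjusted p = 0.000860 by edgeR). GAPDH fell from 58391 and 54804 to 50583 and 49568 (log2 -0.18, adjusted p = 0.0244 by edgeR). This call was lost when PZT-2 replicate 1 or 2 was left out. With all 4 libraries it was also lost on log2(TPM + 1) and log2(TPM + 0.1) (adjusted p = 0.0558 and 0.0524 by limma). HK2 is counted among the 9 at an adjusted p of 0.04998 by edgeR, just under the threshold. It was not called when PANC-1 replicate 1, PANC-1 replicate 2 or PZT-2 replicate 2 was left out. With all 4 libraries, HK2 was not called with RLE size factors (adjusted p = 0.0507 by edgeR) or DESeq2 (adjusted p = 0.14 by DESeq2). Nor was it on log2(TPM + 1) or log2(TPM + 0.1) (adjusted p = 0.127 and 0.131 by limma). Fits that left out a PZT-2 library called fewer genes of this list, higher and lower, and fewer over all genes too. Fewer of the list were also higher when either PANC-1 library was left out, where more genes were higher over all genes. With all 4 libraries, 6 were higher with the replicate block and 7 with limma on either log2 TPM scale.

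Of 50 further HIF targets, 44 were tested. In PZT-2, 19 were higher (43.2%), 2 were lower (4.55%) and 23 did not pass, beside 14.7% higher and 13.7% lower of all genes. The median log2 difference was 0.29. MXI1, an antagonist of MYC, had 121 and 106 normalized counts in PANC-1 and 282 and 275 in PZT-2 (log2 1.30, adjusted p = 0.00104 by edgeR). PLIN2, a lipid droplet coat protein, had 507 and 502 against 1190 and 1271 (log2 1.29, adjusted p = 0.000206 by edgeR). P4HA2, a collagen prolyl hydroxylase, rose by 1.00 and HMOX1, heme oxygenase 1, by 0.80 on the log2 scale. For these 4 genes both PZT-2 libraries were above both PANC-1 libraries.

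MIF, a cytokine, and ZNF395 were the 2 that were lower, at log2 -0.36 and -0.57. MIF lost its call without PZT-2 replicate 1. ZNF395 lost its call without PANC-1 replicate 1 or either PZT-2 library. With all 4 libraries, ZNF395 was not called with DESeq2 (adjusted p = 0.187 by DESeq2) or on log2(TPM + 1) (adjusted p = 0.0776 by limma). Leaving out PANC-1 replicate 2 gave more lower genes in the list. Leaving out either PZT-2 library gave fewer, as it did over all genes. STC1, which encodes the hormone stanniocalcin, is named after its values were seen, with 10.1 and 21.7 counts in PANC-1 and 137 and 170 in PZT-2. MIR210HG, the host transcript of a hypoxia-responsive microRNA, is named in the same way, with 16.9 and 28 against 76.5 and 82.0. Both were called higher, and their PANC-1 values rest on few reads. Over both lists, 28 of the 65 tested genes (43.1%) were called higher and 4 (6.15%) lower, beside 14.7% and 13.7% of all genes. The 28 include CA12, which passed the filter on low counts only through PZT-2. Among genes with at least 5 counts in all 4 libraries, 26 of 61 (42.6%) were higher and 4 (6.56%) lower, beside 15.8% and 14.5% of all such genes. The called genes PLOD2, TFRC and FAM162A are on chromosome 3, and without that chromosome 25 of 59 (42.4%) were higher and 4 (6.78%) lower, beside 12.8% and 14.4% of all such genes. The lists were written with earlier results of these data known, so these shares are a description.

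Of 16 HIF subunits and oxygen sensors, all tested, 2 were higher, 4 were lower and 10 did not pass, with a median log2 difference of 0.03. This is 12.5% higher and 25% lower, beside 14.7% and 13.7% of all genes, and nothing particular to the list is read from these small counts. HIF1A had 571 and 563 normalized counts in PANC-1 and 630 and 532 in PZT-2 (log2 0.03 ± 0.10 SE, adjusted p = 0.835 by edgeR), and the libraries overlapped. Its value was -0.0923 without PZT-2 replicate 1. EPAS1, the HIF-2 alpha subunit, had 2347 and 2235 in PANC-1 and 3494 and 3301 in PZT-2 (log2 0.57, adjusted p = 0.00144 by edgeR). VHL rose by 0.71 on the log2 scale (adjusted p = 0.00396 by edgeR) and is, like PFKFB4, on chromosome 3 with its median of 0.43. Leaving out chromosome 3, 1 of 15 genes of the list was higher.

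ARNT2, a paralog of ARNT, had the largest difference of the list, with 272 and 228 normalized counts in PANC-1 and 8.05 and 8.90 in PZT-2 (log2 -4.86, adjusted p = 0.000109 by edgeR). ARNT itself had 568 and 671 against 712 and 821 (log2 0.30, adjusted p = 0.0877 by edgeR). It passed without PANC-1 replicate 2, in a fit with 1 PANC-1 library. EGLN2, a HIF prolyl hydroxylase, fell by 0.39 and CREBBP, a coactivator, by 0.30 on the log2 scale, and RBX1, a part of the VHL ligase, fell by 0.26. Each of these 3 calls was lost when either PZT-2 library was left out, and that of RBX1 also when either PANC-1 library was left out. With all 4 libraries, RBX1 was not called with DESeq2 (adjusted p = 0.126 by DESeq2). The list had more higher genes without PANC-1 replicate 2, where the rise over all genes was proportionally much smaller. It had fewer lower genes without either PZT-2 library, as was so over all genes.

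Among 23 paralogs of the 10 genes, 13 were tested, 4 were higher in PZT-2 (30.8%), 2 were lower (15.4%) and 7 did not pass, with a median log2 difference of 0.10, beside 14.7% higher and 13.7% lower of all genes. Of the 11 with at least 5 counts in all 4 libraries, 3 were higher and 2 lower. PDK4 had 27 and 28.9 normalized counts in PANC-1 and 96.6 and 74.1 in PZT-2 (log2 1.60, adjusted p = 0.00484 by edgeR), beside PDK2 at -0.13 and PDK3 at 0.27, neither past the threshold. VEGFC, a growth factor for lymphatic vessels, had 340 and 332 against 119 and 146 (log2 -1.34, adjusted p = 0.00109 by edgeR). CA12, the paralog of CA9 that was measured, had no counts in either PANC-1 library and 22.1 and 14.8 in PZT-2. With a floor of 3 counts per library for PANC-1, it was at least 6.08-fold higher, and it passed the filter on low counts only through PZT-2. NDRG3 rose by 0.31 and PFKFB2 by 0.35, while VEGFB fell by 0.24 on the log2 scale. These 3 calls were lost when either PZT-2 library was left out. The call of PFKFB2 was also lost without PANC-1 replicate 2 and that of VEGFB without PANC-1 replicate 1. With all 4 libraries, PFKFB2 and VEGFB were not called with DESeq2 (adjusted p = 0.0781 and 0.121 by DESeq2). Limma on log2(TPM + 1) did not call PFKFB2 either (adjusted p = 0.113 by limma). Without either PZT-2 library fewer paralogs were called, higher and lower, and fewer genes over all genes too. Fewer paralogs were also lower without PANC-1 replicate 1.

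Of 29 receptors and partners, 20 were tested, 4 were higher (20%), 5 were lower (25%) and 11 did not pass, with a median log2 difference of 0.02, beside 14.7% higher and 13.7% lower of all genes. GABARAPL1, of the family that BNIP3 and BNIP3L bind on autophagosomes, had 132 and 75.9 normalized counts in PANC-1 and 280 and 313 in PZT-2 (log2 1.54, adjusted p = 0.00484 by edgeR), while GABARAP fell by 0.31. PDHB, a subunit of the pyruvate dehydrogenase that PDK1 inhibits, rose from 907 and 925 to 1230 and 1219 (log2 0.42, adjusted p = 0.00416 by edgeR). PDHB is on chromosome 3, where the median log2 difference was 0.43, and the part of this in its value was not tested. PDP2, a phosphatase that reverses PDK1's action, rose by 0.57, and PDPR, a regulator of such phosphatases, fell by 0.29. NRP1, a coreceptor for VEGFA, fell by 0.36, BSG, a chaperone of lactate transporters, fell by 0.21, and MAP1LC3A, an autophagosome protein, rose by 0.48. The calls of GABARAP, PDP2, PDPR, NRP1, BSG and MAP1LC3A were each lost when either PZT-2 library was left out. That of MAP1LC3A was also lost without PANC-1 replicate 2 and, with all 4 libraries, with DESeq2 (adjusted p = 0.18 by DESeq2). Limma on log2(TPM + 1) with all 4 libraries did not call NRP1, PDP2 or PDPR (adjusted p = 0.074, 0.0711 and 0.0609 by limma). The most abundant transcript of PDP2 alone had a log2 difference of 0.01. Of the listed receptors, KDR, CALCRL, RAMP2 and RAMP3 were not tested, and FLT1 was at 8.90 normalized counts or fewer in each library. RAMP1, a subunit of peptide receptors, is named after its values were seen. It had 95.6 and 74.1 counts in PANC-1 and 42.3 and 45.5 in PZT-2 (log2 -0.94, adjusted p = 0.0227 by edgeR). RAMP1 lost its call without PANC-1 replicate 1 and without either PZT-2 library. With all 4 libraries, RAMP1 was not called with DESeq2 (adjusted p = 0.0859 by DESeq2). Fits that left out a PZT-2 library called fewer genes of the list, higher and lower, and fewer over all genes too.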

How the data were processed

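RNA-seq was made from 2 libraries each of PANC-1 and PZT-2, stranded mRNA libraries read from both ends on a NextSeq 500. Per the labels and methods, the authors trimmed reads with Trim Galore 0.4.1, estimated RefSeq transcripts with kallisto 0.43.0 and compared the lines with sleuth 0.29.0, and the submitters' processing notes name hg19. The deposited estimated counts carried 1 factor per library, which was undone here, after which 41.1% to 42.3% of values between 0.5 and 30, for genes with 1 transcript, were whole within 0.01, against 0.916% to 2.39% as deposited. The deposited TPM are treated as a score, since their library sums differ. The sleuth results (effects, p and q) were not used, and libraries of PSCR cells were not analysed here.

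Counts were rounded and summed per gene, using transcripts named by the table for the 10 genes (2 transcripts of PDK1 and PFKFB3 named only through the GRCh38.p14 annotation were left out). The edgeR 4.0.16 test in R 4.3.3 took the genes that reached 5 counts in 2 or more of the 4 libraries (TMM factors, quasi-likelihood test, Benjamini-Hochberg adjusted p below 0.05). Scripts were tested on simulated data. For 2 against 2 libraries the smallest p that an exact permutation test gives is 0.333. The p-values measure only the spread between these libraries. A fit that leaves out a library has 1 library in that line, so its spread comes from the 2 libraries of the other line alone. The 10 genes and the lists were chosen with earlier results of these data known. Named from each list were the genes past the threshold with a mean of at least 100 normalized counts, at most 4 in each direction, and family members of the 10 genes. Counting error and the 2 libraries per line limit low values. Alternatives were RLE size factors, DESeq2 1.42.0, 2 other filters, limma 3.58.1 on log2(TPM + 1) and log2(TPM + 0.1), counts as deposited, a replicate block, leaving out each library, the most abundant transcript, a 2-fold minimum and, chosen after seeing the data, the annotation-named transcripts, counts over genes with at least 5 counts in all 4 libraries and counts without chromosome 3.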

Additional observations from a re-analysis of the deposited data

How the results depend on the processing

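With 2 libraries per line and 1 clone, low values and small differences are limited by depth and replication. Of 255 alternative counts, 200 stayed within 1.5 times the reported count and 55 did not, and of 1076 alternative values of single genes, 900 kept their direction and call. Leaving out each library in turn gave 1748 to 4503 genes called over all genes (958 to 2388 higher, 790 to 2177 lower), against 4292, 2223 and 2069. The lowest counts, 2079 and 1748, were without PZT-2 replicate 1 and replicate 2. The 10 genes then had 4 to 7 higher and 0 lower. The ranges were 2 to 5 higher and 1 to 4 lower for HIF subunits and oxygen sensors, 5 to 8 and 1 to 2 for glycolysis, 14 to 25 and 0 to 7 for other HIF targets, 2 to 5 and 1 to 3 for paralogs, and 2 to 6 and 0 to 7 for receptors and partners. A further 2-fold minimum left 837 genes (442 higher, 395 lower), with 0 higher and 1 lower of the HIF subunits and sensors, 1 and 0 of glycolysis, 6 and 0 of the other HIF targets, 2 and 1 of the paralogs and 1 and 0 of the receptors and partners. The most abundant transcript of each gene gave 2124 calls (1132 higher, 992 lower), 3 of the 10 genes higher, 1 glycolysis gene lower, 2 paralogs higher and 1 lower, and 0 receptors and partners lower. The paralogs had 2 higher and 1 lower with DESeq2. The other HIF targets had 4 lower with at least 10 counts in all 4 libraries, 1 lower with the counts as deposited and 1 lower with limma on either log2 TPM scale, where the receptors and partners had 3 lower. Leaving out the genes of chromosome 3, an alternative chosen after seeing the data, left 1 HIF subunit or sensor higher. VEGFA was 0.51 (log2) without PANC-1 replicate 1, and reversed to -0.17 without PANC-1 replicate 2 and to -0.00808 for its most abundant transcript. With a library left out, DDIT4 ran from -0.24 to 1.47 (negative without PANC-1 replicate 2), TRIB3 from -1.28 to 0.48 (positive without PANC-1 replicate 1) and HIF1A from -0.0923 to 0.152 (negative without PZT-2 replicate 1). The main fit did not pair libraries by replicate number. Across genes, deviations of PANC-1 replicate 1 and PZT-2 replicate 1 from their line means had a correlation of -0.024. With 2 libraries per line this cannot show whether same-numbered libraries shared a preparation. With the replicate block 3707 genes were called and the paralogs had 1 lower, while ARNT passed (adjusted p = 0.0401 by edgeR). The cause of these changes was not tested.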
